A study of Homo sapiens with 6 samples.

Results

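The genes described here are 36 transcripts that respond to low oxygen or encode the enzymes and transporters of glycolysis, picked by name out of the 60676 genes counted in each library. All 36 were found by symbol, and 34 of them had enough counts to be tested, beside 15577 tested genes in all; CA9 and ANGPTL4 did not. They comprise 13 targets of the hypoxia-inducible factors (HIFs) that lie outside the glycolytic chain and 23 glycolytic enzymes and transporters of glucose and lactate. The list was chosen for its known biology and not by these counts, although earlier results of these data were known when it was set.

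HEK293A, a strongly attaching subline of the HEK293 kidney cells, was given either the DMSO vehicle (n = 3 libraries) or VT01454 at 20 nM (n = 3 libraries). Both groups were treated for 2 h and no genetic change beyond the parental line is named for either. VT01454 is known here by its code name, and the series title places it in work on phosphatidylinositol transfer proteins and the Hippo pathway. Transcripts were counted by RNA sequencing. Nothing in the labels ties the libraries to distinct cultures, and the spread behind each p-value is that between libraries and may be technical.

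In cells with enough oxygen, prolyl hydroxylases of the EGLN family mark HIF alpha subunits for destruction through the VHL ubiquitin ligase. When oxygen is short the alpha subunit persists, joins ARNT, and switches on genes for blood vessel growth, oxygen sensing, mitophagy and anaerobic sugar use. Several glycolytic enzymes are therefore both housekeeping proteins and HIF targets, and proliferating lines in culture carry their mRNAs at high levels even in room air.

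Library depth was 19126039 to 28880374 counts. Levels are given as CPM, counts scaled to a common library total. On raw library totals a single count equals 0.0346 to 0.0523 CPM, and the CPM values of genes use adjusted totals that differ slightly. Of the HEK293 markers, NEFL (647 to 710 CPM) and VIM (272 to 325 CPM) were high in every library, while PAX2 was at most 0.708 CPM and LHX1 at most 0.111 CPM. The leukocyte genes PTPRC and CD3E were at 0 counts in every library, and the 6 leukocyte markers summed to 0.406 to 1.04 CPM in vehicle and 0.940 to 1.12 CPM in VT01454. Fibroblast and endothelial markers summed to 29.9 to 43.2 CPM in vehicle and 27.1 to 38.2 CPM in VT01454 and squamous markers to 6.20 to 15.4 CPM and 6.71 to 7.19 CPM, with the endothelial gene CDH5 at 0 in 5 libraries. Vehicle library 3 stood apart: 1806 genes were called without it and 294 with it, and calls of named genes that hang on it are given both ways below.

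Promoter letters are shown for 4 members because the HIF dimer binds a short core, ACGTG or GCGTG, and because these 4 pair members whose groups did not overlap (KDM3A and P4HA1) with members near 0 (LDHA and BNIP3). Each line gives the 250 bases before the RefSeq start of the gene (GRCh38.p14), with every match to either core in capitals; a match on the opposite strand reads CACGT or CACGC, and the palindrome CACGTG counts on both strands.
KDM3A (chr2:86441121-86441370, plus strand): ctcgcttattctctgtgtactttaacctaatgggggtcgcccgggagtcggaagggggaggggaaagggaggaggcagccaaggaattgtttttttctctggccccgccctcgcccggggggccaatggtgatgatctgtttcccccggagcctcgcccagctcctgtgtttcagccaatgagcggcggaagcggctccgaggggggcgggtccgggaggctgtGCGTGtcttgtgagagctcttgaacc
P4HA1 (chr10:73096867-73097116, minus strand): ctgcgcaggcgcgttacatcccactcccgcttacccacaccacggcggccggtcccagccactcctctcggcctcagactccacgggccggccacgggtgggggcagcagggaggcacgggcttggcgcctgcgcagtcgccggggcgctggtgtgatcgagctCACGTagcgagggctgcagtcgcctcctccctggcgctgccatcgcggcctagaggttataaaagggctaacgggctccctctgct
LDHA (chr11:18394313-18394562, plus strand): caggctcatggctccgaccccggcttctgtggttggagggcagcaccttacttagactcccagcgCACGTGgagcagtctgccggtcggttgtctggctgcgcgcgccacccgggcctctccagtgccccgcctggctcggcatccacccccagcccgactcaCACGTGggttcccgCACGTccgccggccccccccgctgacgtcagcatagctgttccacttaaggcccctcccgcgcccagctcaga
BNIP3 (chr10:131981924-131982173, minus strand): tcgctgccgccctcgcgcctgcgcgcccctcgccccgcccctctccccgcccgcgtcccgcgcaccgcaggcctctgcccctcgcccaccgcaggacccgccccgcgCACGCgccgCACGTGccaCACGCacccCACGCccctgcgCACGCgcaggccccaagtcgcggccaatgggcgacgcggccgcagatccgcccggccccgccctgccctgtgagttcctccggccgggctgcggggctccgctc
KDM3A and P4HA1 held 1 match each, LDHA 5 and BNIP3 6. ALDOC, whose log2 difference was −0.30, held 5 as well, and BNIP3 held more than any other member with an entry. Other members near 0 held fewer, from 0 in PKM, PGAM1 and TPI1 to 3 in PGK1. No relation between matches and response was tested. Among the 31 members with an entry, 20 (64.5%) held at least 1 match, against 43.2% of all 35116 RefSeq promoter windows of that length; ACGTG alone was found in 45.2% of the members and 18.5% of all windows, and GCGTG in 32.3% and 32.2%. A match describes letters in this window and no binding was measured. VEGFA, SLC2A3, SLC16A1, BNIP3L and NDRG1 had no entry.

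The level of each transcript per kb of annotated exon set the scale of the group (the plot of levels in order shows all 36). ENO1, which encodes the main enolase, was the most abundant at 780.3 CPM per kb over the 6 libraries, and its reads made up 0.390% to 0.444% of all counts in a library. GAPDH (389 CPM per kb) and TPI1 (380.5 CPM per kb) followed and changed places: GAPDH was higher in 5 of 6 libraries, with ratios from 0.956 to 1.06. PGAM1 (296), LDHA (264), PKM (221) and PGK1 (91.7 CPM per kb) came next, each above the following one in all 6 libraries. PGK1 and the lactate transporter SLC16A1 (88.6 CPM per kb) again changed places between libraries, and SLC16A1 was above PFKP (79.2 CPM per kb) in 5 of 6 libraries. The first HIF target outside glycolysis was NDRG1 at 37.6 CPM per kb, and CA9 was last at 0.0425 CPM per kb. Exonic length is the union over all annotated isoforms, so genes with many alternative exons, such as VEGFA and PDK1, are placed low by it.

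**Figure D1:**
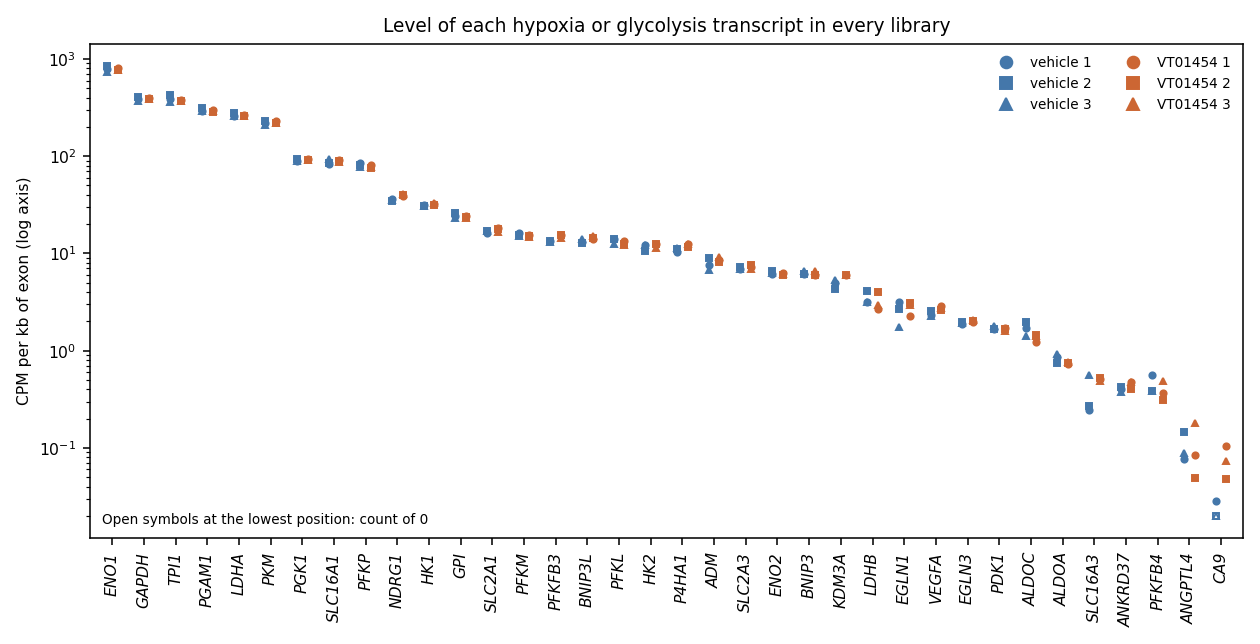
Level of all 36 transcripts in CPM per kb of exon on a log axis, ordered by their mean over the 6 libraries; blue symbols are the 3 vehicle and orange the 3 VT01454 libraries, and open symbols mark a count of 0. Levels run from ENO1 at 780.3 CPM per kb to CA9 at 0.0425 CPM per kb, and the libraries of both groups lie close together for all but the low transcripts, SLC16A3 and EGLN1.

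None of the 34 tested members passed an adjusted p below 0.05 after 2 h with VT01454 (edgeR quasi-likelihood test, adjusted p from 0.0686 to 0.932), where 1.89% of all tested genes did (1.27% higher and 0.616% lower). At an unadjusted p below 0.05, 5 members were higher and 0 lower (KDM3A, NDRG1, PFKFB3, VEGFA and P4HA1), or 5 of 34 where 14.4% of all tested genes passed that mark (7.82% higher and 6.55% lower). DESeq2, the other count test, called KDM3A and NDRG1 (2 members, both higher, where 3.32% of the genes it tested were called, 2.38% higher and 0.941% lower). The median log2 fold change was 0.027 over the members and −0.0073 over all tested genes, and 19 members lay above 0, or 55.9% against 48.4% of all tested genes. Of the HIF targets outside glycolysis, 9 of 11 were above 0 with a median of 0.16 and a range of −0.055 to 0.31. Of the glycolytic genes, 10 of 23 were above 0 with a median of −0.018 and a wider range, −0.30 to 0.47, that took in all of the former. The difference between the lists was not tested.

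**Figure D2:**
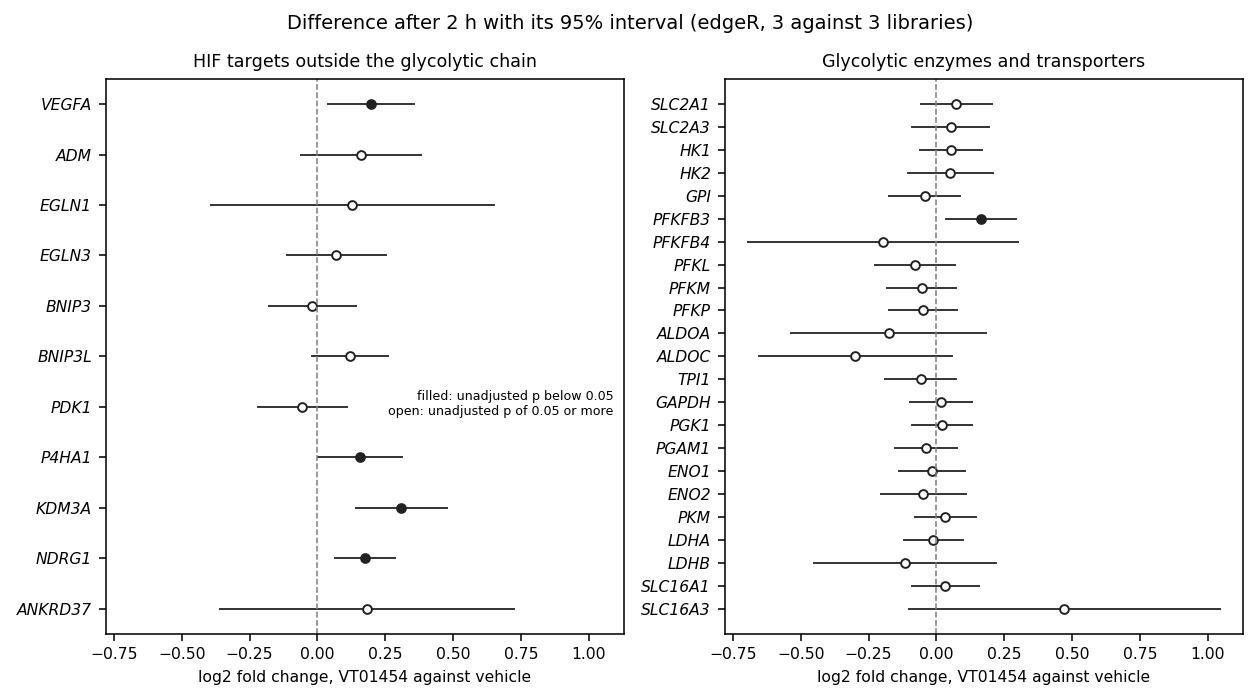
Log2 fold change of VT01454 against vehicle with its 95% interval for the 11 tested HIF targets outside glycolysis (left) and the 23 glycolytic enzymes and transporters (right), from edgeR with 3 against 3 libraries. Filled points have an unadjusted p below 0.05, and no member had an adjusted p below 0.05; KDM3A has the lowest at 0.0686.

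KDM3A (chromosome 2, 86440647 to 86492716), a histone demethylase gene induced by HIF, came nearest to a call. It was at 66.2, 57.5 and 71.8 CPM in vehicle libraries 1, 2 and 3 and at 80.6, 80.8 and 81.2 CPM in the VT01454 libraries. The groups did not overlap, the VT01454 libraries were almost equal, and vehicle library 2 was the lowest. The difference was 1.24-fold (log2 0.31 ± 0.08, SE; 95% interval 1.104 to 1.39-fold; adjusted p = 0.0686). Without vehicle library 2 the log2 difference was 0.23 (adjusted p = 0.0397) and without vehicle library 3 it was 0.38 (adjusted p = 0.00261); DESeq2 gave 0.31 (adjusted p = 0.0132). Without vehicle library 2 it was the 1 member called, where 2.6% of all tested genes were (1.6% higher and 0.999% lower). KDM3A also passed without a count filter (adjusted p = 0.00112) and with the replicate number as a block (adjusted p = 0.0362). Leaving out 1 of the other 4 libraries, or scaling by library size alone, left the gene without a call, with an adjusted p of up to 0.278.

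NDRG1 (chromosome 8, 133237171 to 133302022), a stress-responsive gene used as a marker of hypoxia, was at 356, 337 and 349 CPM in vehicle and at 387, 391 and 398 CPM in VT01454. Its libraries did not overlap and its spread was small in both groups (SD 9.79 and 5.31 CPM). The difference of 1.13-fold (log2 0.17 ± 0.05, SE; adjusted p = 0.131) passed in DESeq2 (adjusted p = 0.0317) and without vehicle library 3 (adjusted p = 0.0290) and in no other alternative.

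VEGFA (chromosome 6, 43770184 to 43786487), the angiogenic growth factor gene, was at 33.9, 36.8 and 33.1 CPM in vehicle and at 41.4, 37.6 and 40.0 CPM in VT01454. The lowest VT01454 library lay just above the highest vehicle library, and the log2 difference was 0.20 ± 0.07 (SE, adjusted p = 0.239). ADM, which encodes the vasodilator peptide adrenomedullin, was at 20.6, 24.3 and 18.4 CPM in vehicle and 23.1, 22.2 and 25.1 CPM in VT01454, so that its groups overlapped (log2 0.16 ± 0.10, SE, adjusted p = 0.506). The ADM difference was 0.27 without vehicle library 2 and 0.065 without vehicle library 3 (adjusted p = 0.124 and 0.697). P4HA1 (chromosome 10, 73007217 to 73096974), a collagen prolyl hydroxylase subunit gene, was at 32.2, 34.0 and 35.5 CPM against 38.8, 35.9 and 38.6 CPM. Its groups were separated by less than 1 SD of either (SD 1.65 and 1.66 CPM; log2 0.16 ± 0.07, SE, adjusted p = 0.344).

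The oxygen sensors did not pass. EGLN3, the prolyl hydroxylase gene most strongly induced by hypoxia in many cells, was at 13.9, 14.6 and 14.1 CPM in vehicle and 14.4, 14.9 and 15.4 CPM in VT01454 (log2 0.070 ± 0.08, SE, adjusted p = 0.740). EGLN1, the main oxygen sensor, was at 23.0, 19.4 and 12.7 CPM in vehicle and 16.4, 22.3 and 21.2 CPM in VT01454. Its 2 lowest values were those of vehicle library 3 and VT01454 library 1, and the spread was wider than for any other member of like level, with a 95% interval of 0.761 to 1.57-fold. The neurofilament gene NEFM was also lowest in these libraries, at 0.369 and 0.140 CPM against 3.74 to 6.58 CPM in the other 4; its part in the EGLN1 values was not tested. Without vehicle library 3 the EGLN1 difference turned from 0.13 to −0.094 on the log2 scale (adjusted p = 0.828 with all libraries).

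The mitophagy receptor genes BNIP3 and BNIP3L are both known HIF targets. BNIP3 was at 32.6, 32.5 and 34.8 CPM in vehicle and 31.8, 31.7 and 35.3 CPM in VT01454, with full overlap (log2 −0.019 ± 0.07, SE, adjusted p = 0.930). BNIP3L was at 56.0, 55.3 and 60.6 CPM against 60.7, 61.6 and 64.6 CPM, with groups that touched but did not overlap (log2 0.12 ± 0.06, SE, adjusted p = 0.426). Per kb of exon BNIP3 made up 31.7% to 32.2% of the pair in vehicle (SD 0.248, n = 3) and 29.4% to 30.7% in VT01454 (SD 0.649, n = 3). All 3 vehicle shares lay above all 3 VT01454 shares, with a mean difference of −2.07 percentage points, which gave the smallest p that 3 against 3 libraries allow (exact two-sided permutation p = 0.1; adjusted over 10 gene families p = 0.889). The shares in the other 9 families gave exact p from 0.4 to 1 and adjusted p of 0.889 or 1. Among the 44 pseudogenes of BNIP3, 14 had a count, together 3.85% of the sum of BNIP3 and its pseudogenes, so a small part of its reads may be assigned elsewhere.

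PDK1, the kinase that keeps pyruvate out of mitochondria, was at 24.7, 25.1 and 26.5 CPM in vehicle and 25.4, 24.7 and 23.5 CPM in VT01454. The values overlapped and the log2 difference was −0.055 ± 0.07 (SE, adjusted p = 0.774). ANKRD37, a small HIF-induced ankyrin repeat gene, was low, with 21 to 35 counts a library, at 1.04, 1.096 and 0.960 CPM against 1.23, 1.04 and 1.23 CPM. Opposite-strand exons of UFSP2 cover 35.2% of its exonic bases, and the strand setting of the counting is not given in the sources used here.

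CA9 and ANGPTL4, commonly used hypoxia markers, were too low to test. CA9, a carbonic anhydrase gene that is off in most cells with enough oxygen, had 1, 0 and 0 counts in vehicle and 5, 2 and 3 counts in VT01454. A count of 0 allows up to 3 counts, or 0.104 to 0.157 CPM on raw library totals, and only VT01454 library 1 exceeded 3 counts. The ratio of summed counts (10 against 1) was 8.66 after scaling, with a 95% interval from 1.23 to 376 that covers counting error only. Exons of ARHGEF39 on the opposite strand cover 38.5% of the CA9 exonic bases, so these reads cannot be assigned with certainty. ANGPTL4, a secreted lipase inhibitor gene, had 4, 7 and 6 counts in vehicle and 6, 3 and 11 in VT01454 (ratio 1.02, 95% interval 0.507 to 2.07, counting error only).

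**Figure D3:**
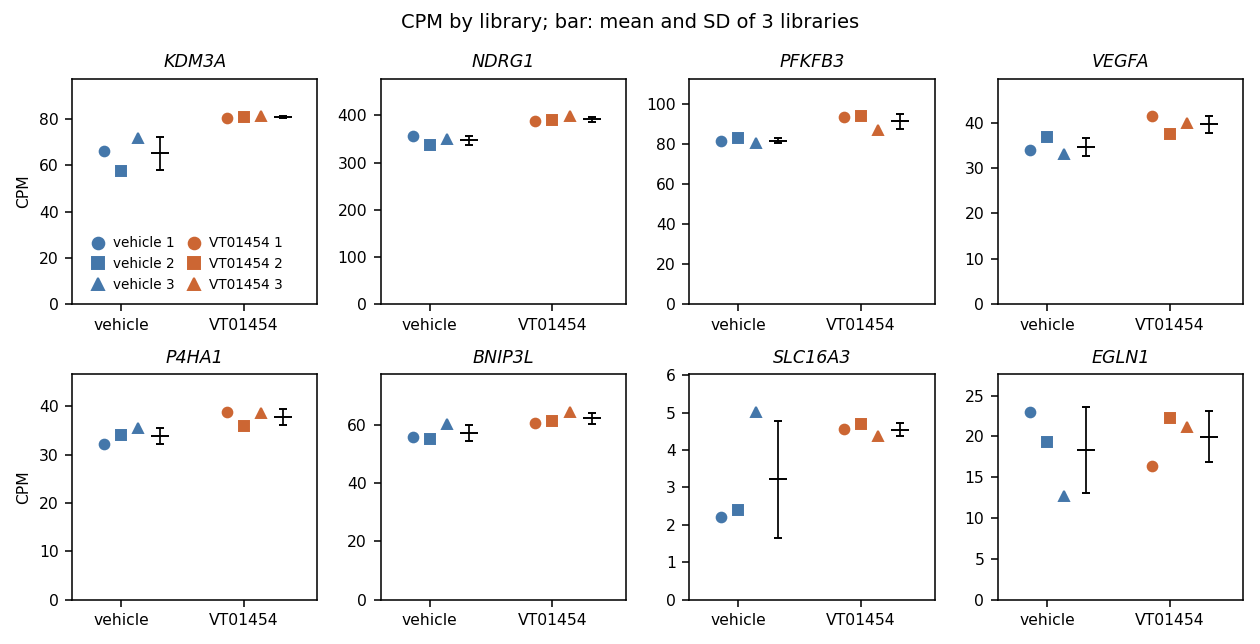
CPM in each library for 8 members, with blue symbols for vehicle, orange for VT01454 and the mean and SD of 3 libraries beside them; axes start at 0. For KDM3A, NDRG1, PFKFB3, VEGFA, P4HA1 and BNIP3L all 3 VT01454 libraries lie above all 3 vehicle libraries, while SLC16A3 is split within the vehicle group and EGLN1 is low in vehicle library 3 and VT01454 library 1.

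In 6 of 34 tested members every VT01454 library was above every vehicle library, where 11.3% of all tested genes were so; 5 of these 6 were HIF targets outside glycolysis and the other was PFKFB3. In 0 members was every VT01454 library below every vehicle library, where 9.84% of all tested genes were. A level in a bulk culture does not tell a change in every cell from one in some of the cells.

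At the entry to glycolysis, the glucose transporter genes kept close levels. SLC2A1, the basal transporter of most cell lines, was at 77.2, 80.7 and 79.9 CPM in vehicle and 86.4, 84.2 and 79.4 CPM in VT01454 (log2 0.073 ± 0.06, SE, adjusted p = 0.615). SLC2A3, a high-affinity transporter, was at 42.2, 44.4 and 42.7 CPM against 44.6, 46.6 and 42.7 CPM (adjusted p = 0.754). SLC2A1 accounted for 70.6% ± 0.315 (SD, n = 3) of the pair per kb in vehicle and 70.9% ± 0.700 in VT01454 (SD, n = 3). Hexokinase, which traps glucose in the cell, was mostly HK1: 199.5, 192 and 193 CPM in vehicle and 204, 197 and 207 CPM in VT01454. HK2, the inducible form and a HIF target, was at 74.7, 64.4 and 73.8 CPM against 75.9, 75.2 and 69.6 CPM. HK1 took 72.6% of the pair in both groups (SD 1.39 and 1.31, n = 3 each), and neither gene passed (adjusted p = 0.676 and 0.778).

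PFKFB3 (chromosome 10, 6144934 to 6254644) makes the sugar bisphosphate that activates phosphofructokinase and was the glycolytic member with the lowest p. It was at 81.8, 83.0 and 80.5 CPM in vehicle and at 93.6, 94.0 and 87.1 CPM in VT01454, without overlap. The difference was 1.12-fold (95% interval 1.024 to 1.22-fold; log2 0.16 ± 0.06, SE) and did not pass (adjusted p = 0.237, and from 0.0957 to 0.599 in the alternatives). Its relative PFKFB4 was low, at 3.44, 2.35 and 2.33 CPM against 2.25, 1.89 and 2.94 CPM. PFKFB3 made up 96.8% of the pair per kb in vehicle and 97.5% in VT01454 (SD 0.728 and 0.669, n = 3 each).

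Phosphofructokinase, the committing step, was carried mainly by the platelet-type gene PFKP, at 410.4, 389 and 370.2 CPM in vehicle and 392, 363 and 374 CPM in VT01454. The liver-type PFKL was at 125, 125 and 111 CPM against 121, 113 and 108 CPM, and the muscle-type PFKM at 119, 114 and 109 CPM against 114, 109.7 and 107 CPM. Per kb, PFKP held 73.5%, PFKM 14.2% and PFKL 12.3% of the family in vehicle. These shares depend on the annotated exon length: in CPM the vehicle mean of PFKL (120) was above that of PFKM (114). All 3 genes had overlapping groups and adjusted p from 0.625 to 0.724.

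A set of 8 mostly abundant enzymes gave narrow limits. It left out hexokinase, phosphofructokinase and aldolase, as well as the low relatives ENO2 and LDHB. Abundance did not set it strictly, since GPI (24.1 CPM per kb) was below PFKP (79.2 CPM per kb). Outside the set, the 95% intervals of ALDOA (−30.9% to 13.4%), ALDOC (−36.5% to 3.94%) and LDHB (−26.8% to 16.5%) were wider. That of PFKP (−11.5% to 5.35%) was of like width. For GPI, TPI1, GAPDH, PGK1, PGAM1, ENO1, PKM and LDHA the log2 differences ran from −0.058 to 0.033, with SEs of 0.050 to 0.061, and every 95% interval lay between a fall of 12.3% and a rise of 10.7% (adjusted p from 0.696 to 0.932). GPI, which isomerises glucose phosphate, was at 262, 278 and 244 CPM in vehicle and 262, 251 and 248 CPM in VT01454. TPI1, which interconverts the triose phosphates, was at 1037, 1138 and 969 CPM against 1015, 1005 and 999 CPM. The vehicle values bracketed those of VT01454 for both genes. GAPDH, the triose phosphate dehydrogenase often used as a reference gene, was at 1166, 1201 and 1091 CPM against 1191, 1159.9 and 1147 CPM. PGK1, the first ATP-forming step, was at 492, 518 and 497 CPM against 519.8, 507 and 501 CPM. PGAM1, the mutase, was at 756, 804 and 753 CPM against 775, 726 and 751 CPM.

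ENO1 was at 4128, 4431 and 3866 CPM in vehicle and 4214, 4019 and 4041 CPM in VT01454, and its neuronal relative ENO2 at 26.5, 28.2 and 26.8 CPM against 27.2, 25.5 and 26.1 CPM. ENO1 made up 99.2% of the pair per kb in both groups. PKM, the pyruvate kinase gene whose M1 and M2 splice forms these counts do not separate, was at 1888, 1957 and 1783 CPM against 1975, 1896 and 1887 CPM. LDHA, which reduces pyruvate to lactate, was at 1597, 1722 and 1611 CPM against 1650.4, 1624 and 1615 CPM. Each of these ranges overlapped between the groups.

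The same library was highest within each group for all of these enzymes. Vehicle library 2 was the highest vehicle library for all 8 of these enzymes, and VT01454 library 1 the highest VT01454 library for all 8. Over the 34 tested members each of these libraries was highest in its group for 19. PFKP and SLC16A1, more abundant per kb than GPI, were highest in vehicle libraries 1 and 3, and both in VT01454 library 1. The share over all tested genes was not taken. Without vehicle library 2 the differences of GPI, TPI1, ENO1 and LDHA turned to between 0.0051 and 0.035 on the log2 scale, so no direction can be given for them. The SD was larger in vehicle than in VT01454 for 25 of 34 tested members (73.5%), as for 73.9% of all tested genes.

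Aldolase and the second lactate dehydrogenase were recorded at low levels, and ALDOA and LDHB share exons with other genes. ALDOA (chromosome 16, 30064164 to 30070457), the aldolase of muscle and most cell lines, was at 3.40, 2.92 and 3.58 CPM in vehicle and 2.88, 2.89 and 3.02 CPM in VT01454 (log2 −0.18 ± 0.17, SE, adjusted p = 0.659). In GENCODE 29, 42.3% of its exonic bases are shared with another gene on the same strand, ENSG00000285043, which had 10 to 26 counts a library, and 48.1% of the 50-base words of its transcripts occur in transcripts of other genes, the highest share among the 36. ALDOC, the brain-type aldolase and a HIF target, was at 4.95, 5.74 and 4.097 CPM against 3.61, 4.22 and 4.13 CPM, with overlapping groups (adjusted p = 0.432). LDHB was at 9.48, 12.3 and 9.41 CPM against 8.001, 11.9 and 8.83 CPM (adjusted p = 0.772), and 33.4% of its exonic bases are shared with a same-strand gene that had 0 to 2 counts a library. LDHA made up 98.7% of the LDHA and LDHB sum per kb in vehicle and 98.8% in VT01454. How reads in shared stretches were assigned is not given in the sources used here, and the part of the overlap in these levels was not tested.

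Copies elsewhere in the genome took few counts. GAPDH has 65 pseudogenes in the tables, of which 18 had a count, together 0.230% of the sum with GAPDH itself. The share was 1.17% for TPI1, 2.79% for LDHB and 0.0643% for PGAM1, although 30.7% of the PGAM1 words of 50 bases are found in other genes. Levels of such genes are uncertain where reads with several positions were dropped or split.

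Lactate leaves the cell through monocarboxylate transporters. SLC16A1, the widely expressed form, was at 446, 452 and 498 CPM in vehicle and 487, 473 and 468 CPM in VT01454 (log2 0.033 ± 0.06, SE, adjusted p = 0.823). SLC16A3 (chromosome 17, 82228397 to 82261129), the form induced by HIF in glycolytic cells, was at 2.22, 2.40 and 5.02 CPM against 4.56, 4.70 and 4.37 CPM. Vehicle library 3 was above all VT01454 libraries, and vehicle libraries 1 and 2 were below all of them. With all libraries the log2 difference was 0.47 ± 0.26 (SE, adjusted p = 0.442), and without vehicle library 3 it was 0.98 (adjusted p = 0.00550). That call rests on leaving out 1 library, in a setting where 11.4% of all tested genes were called (7.36% higher and 4.0% lower), and 3 members (KDM3A, NDRG1 and SLC16A3) were among them. Opposite-strand exons of CSNK1D, a gene with 3440 to 4370 counts a library, cover 5.36% of the SLC16A3 exonic bases. SLC16A3 itself had 46 to 136 counts a library, and the part of this overlap was not tested.

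The regulators of the pathway were read from the same fit. Of 16 tested HIF subunits and regulators, 1 fell, 0 rose and 15 did not pass, where 1.89% of all tested genes were called and 0.616% fell. At an unadjusted p below 0.05, 4 were higher and 3 lower, or 7 of 16 where 14.4% of all tested genes passed; the median log2 fold change was 0.067. VHL (chromosome 3, 10141008 to 10152220), the substrate receptor that targets HIF alpha for destruction, fell to 0.822-fold of vehicle (95% interval 0.748 to 0.904). It was at 54.0, 56.8 and 54.0 CPM in vehicle and 46.4, 44.3 and 44.8 CPM in VT01454, without overlap (log2 −0.28 ± 0.06, SE, adjusted p = 0.0421). The call was lost without vehicle library 1 or any single VT01454 library (adjusted p from 0.149 to 0.274).

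HIF1A, the main oxygen-regulated subunit, was at 118, 109.8 and 124 CPM in vehicle and 128, 133 and 132 CPM in VT01454 (log2 0.16 ± 0.06, SE, adjusted p = 0.258). Without vehicle library 3 HIF1A passed (log2 0.20, adjusted p = 0.0270). EPAS1, which encodes HIF-2 alpha, was at 9.91, 9.24 and 10.04 CPM against 11.9, 12.5 and 11.9 CPM (log2 0.31 ± 0.09, SE, adjusted p = 0.142). Both had groups that did not overlap, and HIF3A was at 0 counts in every library. The partner genes ARNT and ARNT2 had log2 differences of 0.10 and 0.19 (adjusted p = 0.552 and 0.403). The co-activator genes EP300 and CREBBP stood at 0.36 and 0.25 (adjusted p = 0.327 and 0.306), with the lowest values of both in vehicle library 2 (116 and 158 CPM), the library in which KDM3A was lowest as well. Without that library EP300 stood at 0.19, which passed, and CREBBP at 0.12, which did not (adjusted p = 0.0422 and 0.202); without a count filter both passed (adjusted p = 0.00975 and 0.00738).

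CITED2, a HIF-induced inhibitor that competes for these co-activators, was at 102.4, 102.2 and 86.4 CPM in vehicle and 79.9, 76.9 and 80.4 CPM in VT01454. It did not overlap but missed the threshold (log2 −0.29 ± 0.07, SE, adjusted p = 0.0684), and DESeq2 called it (adjusted p = 0.0196). CITED2 also passed without a count filter (adjusted p = 0.00740) and without vehicle library 3 (log2 −0.37, adjusted p = 7.08e-04). HIF1AN, the asparaginyl hydroxylase that blocks HIF activity, and EGLN2, a prolyl hydroxylase, stood at −0.14 and −0.41 (adjusted p = 0.304 and 0.414). The ubiquitin ligase genes ELOB, ELOC, CUL2 and RBX1 lay between −0.088 and 0.044, and SIAH1 and SIAH2, ligases for the EGLN proteins, at 0.21 and 0.090; none of these 6 passed (adjusted p from 0.457 to 0.971). Without vehicle library 3 ELOB stood at −0.19 and passed (adjusted p = 0.0488).

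Among 38 tested HIF targets outside the 36 members, 4 rose, 0 fell and 34 did not pass, where 1.27% of all tested genes rose and 0.616% fell (median log2 0.062). Before adjustment 11 of the 38 had a p below 0.05, 9 higher and 2 lower. That mark was passed by 14.4% of all tested genes (7.82% higher and 6.55% lower). The log2 differences of the list ran from −0.53 to 0.99. BHLHE40, a circadian and hypoxia-induced repressor gene, was at 30.9, 28.1 and 29.1 CPM in vehicle and 44.04, 39.8 and 44.3 CPM in VT01454, a rise of 1.45-fold (log2 0.54 ± 0.07, SE, adjusted p = 0.00169). CXCR4, a chemokine receptor gene, rose 1.698-fold from 8.35, 9.18 and 8.16 CPM to 14.7, 15.9 and 12.9 CPM (log2 0.76 ± 0.11, SE, adjusted p = 0.00224). TFRC, the transferrin receptor gene, rose 1.22-fold and WSB1, a ubiquitin ligase subunit gene, rose 1.24-fold (adjusted p = 0.0349 and 0.0406). TFRC and WSB1 lost the call without vehicle library 1, without any single VT01454 library and with scaling by library size alone (adjusted p from 0.0593 to 0.251), while BHLHE40 and CXCR4 passed in each alternative. These 4 genes also respond to signals other than oxygen, and the cause of their rise was not tested.

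Of 36 tested genes for other glycolytic isoforms, pyruvate handling and sugar or lactate transport, 0 passed in edgeR or DESeq2, and 4 of the 36 reached 0.05 before adjustment, beside 14.4% of the genes tested in all (median log2 0.034). The lowest p-values were those of PDK4, a pyruvate dehydrogenase kinase gene, at log2 0.42, the transporter gene SLC16A7 at 0.34 and TIGAR, a sugar bisphosphatase gene, at 0.24 (adjusted p from 0.254 to 0.261). Without vehicle library 3 SLC16A7 stood at 0.54 and TIGAR at 0.32, and both passed (adjusted p = 0.00329 and 0.0394); SLC16A7 passed without a count filter too (adjusted p = 0.0146), and PDK4 stood at 0.27 without VT01454 library 1 (adjusted p = 0.622). Of the 7 pentose phosphate pathway genes 0 passed in edgeR or DESeq2, and 6 of 7 lay below 0 with a median of −0.053; RPE, the epimerase gene, had the only unadjusted p below 0.05 (log2 −0.13, adjusted p = 0.326), followed by PGLS and TKT (log2 −0.17 and −0.074). PGLS passed without vehicle library 3 (log2 −0.28, adjusted p = 0.0330) and stood at −0.073 without vehicle library 2.

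**Figure D4:**
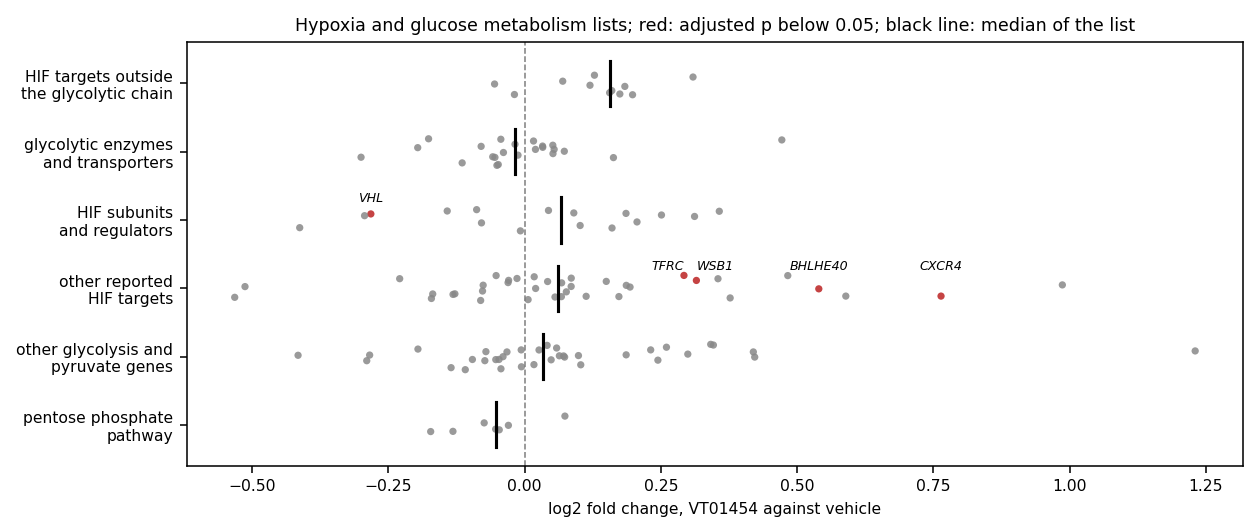
Log2 fold change of each tested gene in the 2 groups of members and 4 further lists, 1 point a gene with the median of each list as a black line and genes with an adjusted p below 0.05 in red. The red points are VHL among the regulators and BHLHE40, CXCR4, TFRC and WSB1 among the other HIF targets, and no member is red.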

How the data were processed

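RNA was sequenced in 6 samples of HEK293A cells. The authors deposited unnormalised read counts for Ensembl genes, made with HISAT2 2.2.1 and HTSeq 0.9.1 on hg38, per the submitters' processing notes; for the annotation release, strand setting and multi-mapped reads, nothing was stated. Symbols were matched to 60357 of 60676 IDs, and GENCODE 29 gave coordinates, exonic lengths and overlaps.

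Genes were kept by filterByExpr, scaled by TMM and tested two-sided with edgeR 4.0.16 in R 4.3.3 (quasi-likelihood F-test, robust); Benjamini-Hochberg adjustment covered every gene tested, and calls were made below 0.05. CPM uses TMM-scaled totals. SEs are the log2 fold change over the square root of F, and 95% intervals use the fit's degrees of freedom. Shares within families used exact permutation. The code was tested on simulated data. Alternatives were DESeq2 1.42.0, other scalings and filters, the replicate number as a block, and leaving out each library.

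The members, gene lists and tests were chosen with earlier results of these data known. Values in every library were given for all members; regulators were named whatever their result, and genes of other lists if called or, failing that, the 3 with the smallest p.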

Additional observations from a re-analysis of the deposited data

How the results depend on the processing

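The count of all genes called, 294, was 713 without a count filter and 93 to 1806 when 1 library was left out, the highest without vehicle library 3. The count of members called, 0, was 2 with DESeq2, 1 without a count filter, 1 with the replicate block and 0 to 3 when 1 library was left out; each of these calls was a rise. Among HIF regulators the count of 1 became 2 with DESeq2, 4 without a count filter, 0 with the replicate block (VHL adjusted p = 0.0603) and 0 to 4 when 1 library was left out. Other HIF targets went from 4 to 2 with library size alone and to between 2 and 9 when 1 library was left out; other glycolytic and pyruvate genes from 0 to 1 without a count filter and 0 to 3, and pentose phosphate genes from 0 to 0 to 1, when 1 library was left out.

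No pairing of the samples by replicate number was evident: deviations of same-numbered libraries correlated at −0.070, 0.028 and −0.014, and not every library correlated best with its own number. With 3 libraries a group, these correlations cannot exclude a pairing. With the replicate block 339 genes were called, KDM3A among them (adjusted p = 0.0362).

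Signs near 0 turned. GAPDH stood at −0.0070 and PGK1 at −0.0034 with library size alone, and LDHA at 0.0017 and ELOC at 0.0063 without a count filter. With 1 library left out, log2 ranges that crossed 0 were −0.011 to 0.094 for HK2, −0.38 to 0.013 for PFKFB4, −0.092 to 0.0051 for GPI, −0.11 to 0.0057 for TPI1, −0.024 to 0.048 for GAPDH, −0.067 to 0.035 for ENO1, −0.0042 to 0.065 for PKM, −0.031 to 0.024 for LDHA, −0.30 to 0.017 for LDHB, −0.067 to 0.013 for BNIP3, −0.094 to 0.33 for EGLN1, −0.19 to 0.023 for ELOB, −0.065 to 0.072 for ELOC, −0.0033 to 0.11 for CUL2 and −0.18 to 0.025 for RBX1. Share differences that crossed 0, in percentage points, were −0.0729 to 0.622 for SLC2A1, −0.754 to 0.783 for HK1, −0.368 to 0.00781 for PFKL, −1.17 to 4.80 for ALDOA, −0.00283 to 0.0311 for ENO1, −0.0189 to 0.232 for LDHA and −2.69 to 4.84 for EGLN1. The BNIP3 share stayed lower in VT01454 in all 7 alternatives (−2.44 to −1.81 points with 1 library left out). Because its shares did not overlap between the groups, neither leaving out 1 library nor dropping exon length could turn this sign. Depth limits CA9 and ANGPTL4 to the counting intervals given, and 3 libraries a group limit every other member.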
